A study of Mus musculus with 38 samples.

Results

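IM1 is 1 of 3 macrophage populations sorted from the interstitium of the mouse lung, and it was compared here with the alveolar macrophages (AM) of the airspace. The members of this comparison are the samples labelled IM1 or AM, which are 18 of the series' 38 samples. They are sequencing runs of 6 of its 12 RNA libraries, 3 from each population (replicates A, B and C). All came from naive C57Bl/6 mice aged 8 to 10 weeks. Lungs were digested for 30 minutes with Liberase, a collagenase blend, at 0.5 mg/ml. For IM1, the suspension was first enriched for MerTK, a receptor for dying cells. The cells were then sorted as CD64+ and CD11b+ with low CD11c, high CD206 (the mannose receptor, encoded by Mrc1) and low MHC class II, after removal of cells with CD24, CD43, Siglec F, Ly6G, B220, CD3 or NK1.1. AM were sorted as CD11c+ and Siglec F+, after removal of cells with B220, CD3, NK1.1, Gr1, CD11b or CD103. About 50000 cells gave the RNA of a library, its integrity number lay between 9.2 and 10.0, and 2 ng was amplified with SMART-Seq v4 and sequenced on Ion Proton. The other interstitial populations, IM2 (high for both MHC class II and CD206) and IM3 (high for MHC class II only), are used only to find which differences from AM belong to IM1 alone. Whether replicates came from separate mice or pools is not given in the sources used here, so each p-value reflects only how these libraries vary. The MerTK enrichment, the antibody panel and the population changed together between IM1 and AM and cannot be told apart.

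Macrophages of the lung occupy separate compartments. Alveolar macrophages live on the airway side of the epithelium, depend on GM-CSF, TGF-beta and the nuclear receptor PPAR-gamma, clear surfactant lipid and maintain themselves by division. Interstitial macrophages lie in the tissue around airways, vessels and nerves and depend mainly on the CSF1 receptor. Those with high CD206 and low MHC class II resemble the LYVE1-positive macrophages that line blood vessels in many organs, which take up glycoproteins, dying cells and haemoglobin complexes.

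The AM libraries held 14439177 to 15758326 reads assigned to genes and the IM1 libraries 11818981 to 14572622, so 3 counts, the limit that a count of 0 allows, came to 0.190 to 0.254 CPM (counts scaled to a common library size). More genes had a count in IM1 (18172 to 18797) than in AM (16050 to 16475). The 20 most abundant genes took 20% to 21.2% of the reads of AM libraries and 12.2% to 16.8% of those of IM1. The IM1 libraries varied more: the median ratio of SD to mean, over genes of at least 10 CPM in both populations, was 0.181 in IM1 and 0.0712 in AM. IM1 replicate A stood apart, with the fewest reads and the lowest of the 12 weights that limma gave to libraries for quality (0.224). It also had 0.691% of its reads on ribosomal protein genes, against 0.368% to 0.395% in the other two IM1 libraries. Each fold change below is IM1 over AM from 1 edgeR fit, with genes counted as called below an adjusted p of 0.05. Levels are CPM after TMM scaling, and each trio of values is given in the order of replicates A, B and C.

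Most of the genes tested differed between IM1 and AM, and the largest differences were nearly on-off. Of 14095 genes tested, 8291 were called (58.8%), 4666 of them higher in IM1 (33.1%) and 3625 higher in AM (25.7%). These 2 shares are the background for the count of each gene list. At least 2-fold differences were called for 3274 genes higher in IM1 (23.2%) and 1948 higher in AM (13.8%). Among the genes tested, steep differences leaned to IM1: 1407 were called at least 16-fold higher there and 330 at least 16-fold higher in AM. These are fitted folds, which for genes at 0 in a population can exceed the bounds given for single genes. No AM library held a count for 743 of the genes tested, and no IM1 library for 45 of them. The filter on low counts used the libraries of all populations, so a gene without AM counts could pass through IM1, IM2 or IM3. How far this filter shaped the uneven counts was not tested. In bulk RNA, fewer cells of a type and less RNA per cell cannot be told apart. Over all tested genes, the log2 fold change had a median of 0.12, and it was 0.18 with upper-quartile scaling. In the plot of mean levels, the genes without AM counts form the line of points at the left edge.

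**Figure D1:**
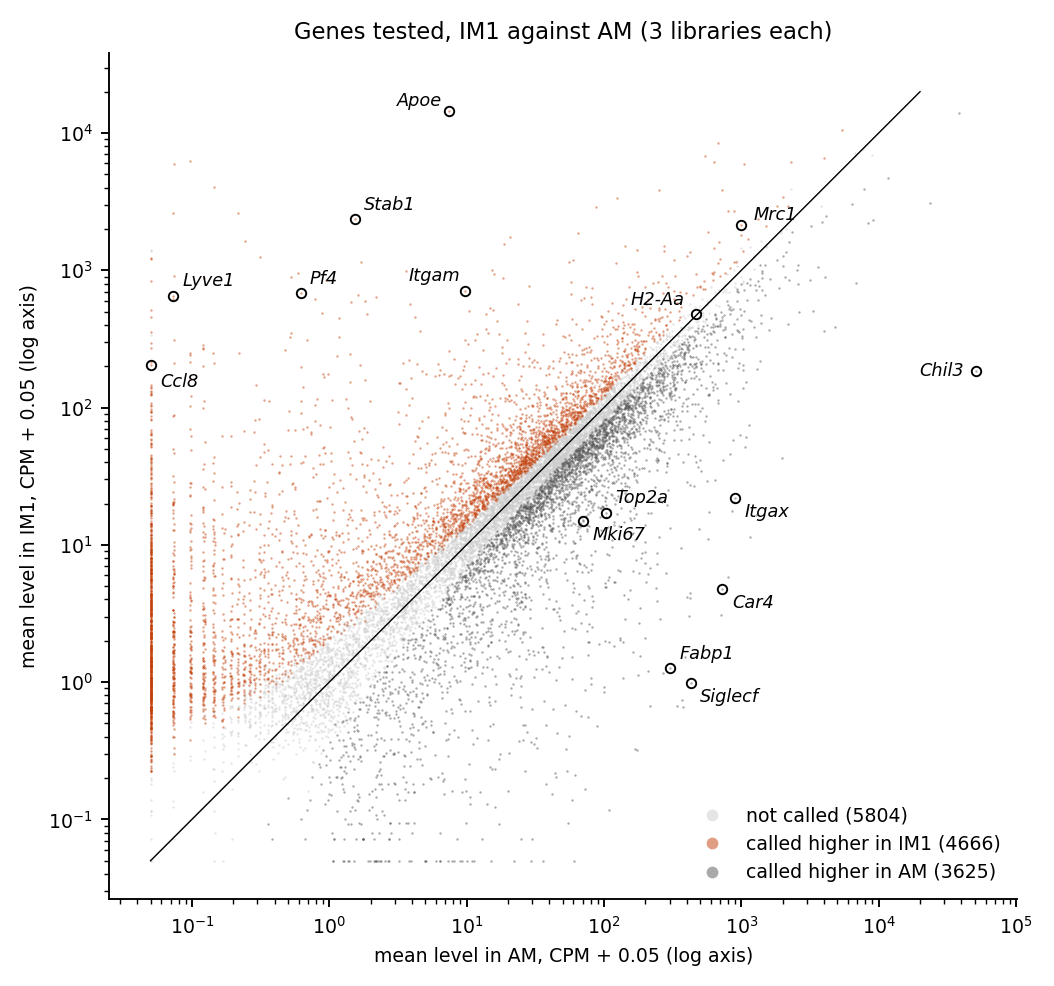
Mean level of each of the 14095 genes tested in AM (horizontal, CPM + 0.05, log axis) and in IM1 (vertical, CPM + 0.05, log axis), each point a gene and the diagonal the line of equal levels. Orange points were called higher in IM1 (4666), dark points higher in AM (3625) and pale points were not called. Apoe, Stab1 and Lyve1 lie far above the diagonal, Chil3, Siglecf and Car4 far below it, and H2-Aa lies on it.

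The genes of the sort gates followed the sorted proteins for CD11b, CD11c and Siglec F, while the MHC class II genes H2-Aa and H2-Ab1 did not separate IM1 from AM. Itgam, which encodes CD11b, was at 10.1, 7.23 and 11.9 CPM in AM and 567, 819 and 745 in IM1 (log2 fold change 6.19, SE 0.22, adjusted p = 2.39e-12). Siglecf, the sialic acid receptor of the AM gate, was at 447, 425 and 409 CPM in AM and 0.437, 0.995 and 1.36 in IM1 (log2 fold change -8.77, SE 0.28, adjusted p = 9.82e-13). Itgax, which encodes CD11c, was at 884, 918 and 916 CPM in AM and 13.02, 32.4 and 20.3 in IM1 (log2 fold change -5.36, SE 0.28, adjusted p = 1.89e-10). None of these 3 genes overlapped between the populations. Of all genes tested, 34.3% had every IM1 library above every AM library and 28.1% had the reverse. Mrc1 (chr2:14229392-14332057, mm10) was high in both, at 1026, 967 and 1006 CPM in AM and 1756, 2283 and 2407 in IM1, a difference of 1.10 on the log2 scale (SE 0.13, adjusted p = 2.61e-06). Mertk, though its protein was used to enrich the interstitial cells, was lower in IM1, at 201, 199 and 194 CPM against 425, 381 and 413 in AM (log2 fold change -1.04, SE 0.14, adjusted p = 1.4e-05). Fcgr1, which encodes CD64, was higher in IM1 (log2 fold change 1.35, adjusted p = 3.73e-06).

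H2-Aa, the alpha chain of MHC class II, was at 507, 389 and 539 CPM in IM1 and 323, 549.96 and 535 in AM (log2 fold change 0.03, SE 0.17, adjusted p = 0.908). The populations overlapped, and the 95% interval of the difference ran from -0.34 to 0.40, which lies within 1.5-fold either way. H2-Ab1 (0.06, interval -0.32 to 0.43) and the invariant chain Cd74 (-0.05, interval -0.35 to 0.25) gave the same picture. H2-Eb1, the beta chain of the second class II molecule, was higher in IM1 (log2 fold change 0.60, adjusted p = 0.00523). Among the 15 tested gate genes, 5 were higher in IM1, 6 were higher in AM (Siglecf, Cd24a, Itgax, Spn, Ptprc and Mertk) and 4 were not called. Cd24a, which encodes CD24, stood at 5.42, 4.97 and 4.09 CPM in IM1 against 232, 260.1 and 223 in AM. Klrb1c (NK1.1) was called higher in IM1 at 0.8 CPM against 0.189, from 35 and 8 counts, and lost its call without AM replicate B, AM replicate C or IM1 replicate C. Of the lineage genes, Ly6g had 0 counts in both populations and Cd3e had 1 count in each.

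**Figure D2:**
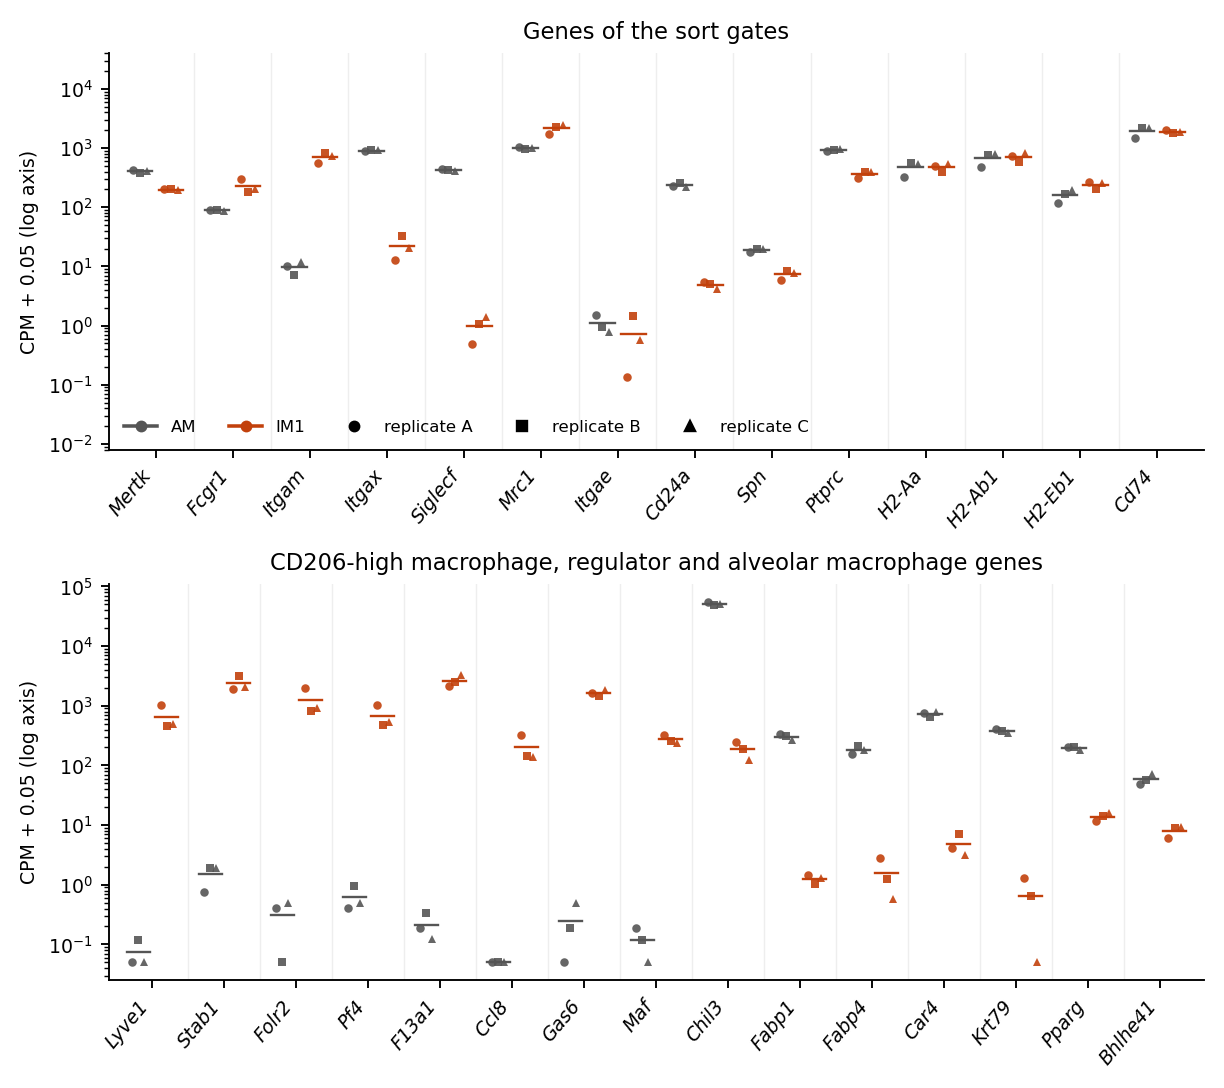
Level of single genes in the 3 AM and 3 IM1 libraries (CPM + 0.05, log axis), each symbol a library and each bar a mean. Above, genes of the sort gates, where Itgam, Itgax and Siglecf separate the populations and H2-Aa, H2-Ab1 and Cd74 do not. Below, CD206-high macrophage genes and Maf are high in IM1 and at or under about 2 CPM in AM, and the alveolar macrophage genes are higher in AM without overlap.

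Of 28 genes listed as markers of alveolar macrophages, 26 were higher in AM, against 25.7% of all genes, with a median log2 fold change of -5.64. Their summed level was 68585 to 74441 CPM in AM and 1337 to 1579.7 in IM1. Chil3, a chitinase-like protein and the most abundant gene of AM, stood at 54699, 48101 and 51028 CPM there and 243, 189.8 and 123 in IM1 (log2 fold change -8.11, SE 0.52, adjusted p = 1.85e-09). Trim29, a cytosolic regulator of antiviral signalling, was at 105, 102 and 122 CPM in AM and had 3 counts in IM1, all in replicate B, a ratio of 1526 (95% interval 522 to 7404) that covers counting error only. Krt79, a keratin, was at 403, 383 and 347 CPM in AM and 1.22, 0.597 and 0 in IM1 (log2 fold change -9.38). The exceptions were Cxcl2, a neutrophil-attracting chemokine that was higher in IM1 (180.4, 201 and 141 CPM against 5.11, 8.77 and 6.63, log2 fold change 4.67), and Lmo7, which stayed under 0.5 CPM in every library and was not called, but was called higher in IM1 without AM replicate B.

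The perivascular genes showed the opposite pattern. Of 24 genes listed as markers of CD206-high perivascular macrophages, 23 were higher in IM1, against 33.1% of all genes. In each of the 23 every IM1 library lay above every AM library, against 34.3% of all genes. The median log2 fold change was 11.08, or 10.68 with genes at 0 in AM set to their bound. Their summed level was 21610.1 to 27784 CPM in IM1 and 828 to 943 in AM. Lyve1, a hyaluronan receptor, was at 1014, 459 and 485 CPM in IM1 and had 1 count in AM, a ratio of 26112 (95% interval 4686 to 1031420). Stab1, a scavenger receptor, stood at 1891, 3146 and 2053 CPM in IM1 and 0.701, 1.89 and 1.84 in AM (log2 fold change 10.64). Folr2, a folate receptor, stood at 1982, 808 and 935 against 0.35, 0 and 0.442, and Gas6, a ligand of MerTK, at 1657, 1480.05 and 1804 against 0, 0.14 and 0.442. Cd209f, a lectin of the DC-SIGN family, and Ednrb, the endothelin receptor B, had 0 counts in AM and were at least 3947-fold and 2928-fold higher in IM1. Lyve1 and Ednrb were highest in IM1 replicate A (279.5, 159 and 204 CPM for Ednrb). The lectin genes of the Cd209 cluster are close copies of each other, and reads that fit several of them were not counted. Ltc4s, the leukotriene C4 synthase, was the member not called, at 35.7, 17.97 and 19.2 CPM in IM1 and 30.97, 24.7 and 28.5 in AM.

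Among pan-macrophage genes, Csf1r, the CSF1 receptor, was at 5152, 7490.3 and 7789 CPM in IM1 and 506, 600.5 and 537 in AM (log2 fold change 3.64, SE 0.16, adjusted p = 3e-11). Adgre1, which encodes F4/80, was also higher in IM1 (1.72), while Cd68 (-0.63), the lysozyme gene Lyz2 (-1.46) and Spi1 (-0.36), which encodes the myeloid regulator PU.1, were higher in AM. All 5 were abundant in both, the lowest mean being 290.3 CPM for Spi1 in IM1.

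Of 43 tested regulators in a list of lineage transcription factors, 22 were higher in IM1 and 15 higher in AM. Maf, a large MAF factor, was at 328, 257 and 234 CPM in IM1 and had 3 counts in AM, a ratio of 3763 (95% interval 1287 to 18249). Pparg, the regulator of alveolar macrophage identity and lipid use, was at 207, 205 and 181 CPM in AM and 11.6, 14.2 and 15.6 in IM1 (log2 fold change -3.83, SE 0.18, adjusted p = 5.9e-11). Runx2, a factor best known from bone, was at 26.1, 27.4 and 29.9 against 2.01, 1.39 and 1.62 (log2 fold change -4.06). Bhlhe41 and Bhlhe40, repressors known for supporting alveolar macrophage renewal, differed by -2.85 and -3.54 on the log2 scale.

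Of 25 genes of the CSF and TGF-beta pathways, 10 were higher in IM1, 7 higher in AM and 8 not called, near the 33.1% and 25.7% of all genes. Csf2rb, the shared beta chain of the receptors for GM-CSF, IL-3 and IL-5, was at 599, 583 and 569 CPM in AM and 99.2, 143 and 129 in IM1 (log2 fold change -2.24, SE 0.13, adjusted p = 7.22e-10). Its mouse-specific copy Csf2rb2 differed by -2.02 on the log2 scale, and reads common to the copies were not counted. Smad3, which carries TGF-beta signals to the nucleus, was at 21.1, 39.2 and 24.6 CPM in IM1 and 0.631, 0.702 and 0.147 in AM (log2 fold change 5.81). Tgfbr3, a TGF-beta co-receptor, had 0 counts in AM and 74 in IM1, at least 24.8-fold higher there but under 4 CPM in every library.

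Of 37 chemokine and other G protein-coupled receptor genes, 21 were higher in IM1, 11 higher in AM and 5 not called. S1pr1, the sphingosine 1-phosphate receptor that steers cells along vessels, was at 178, 222 and 238 CPM in IM1 and had 1 count in AM, a ratio of 9100.04 (95% interval 1633 to 359472). Cx3cr1, the fractalkine receptor, was at 427, 621 and 734 CPM in IM1 and 1.12, 2.95 and 1.25 in AM. On the other side, Fpr1, a receptor for bacterial formyl peptides, was at 425, 420.1 and 417 CPM in AM and 8.04, 3.52 and 1.75 in IM1 (log2 fold change -6.61, SE 0.42, adjusted p = 1.5e-09). Cxcr2, a receptor for neutrophil-attracting chemokines, had 416 counts in AM and 2 in IM1.

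Of 44 tested uptake receptors, 28 were higher in IM1 and 13 higher in AM. Fcrls, an Fc receptor-like scavenger protein, was at 1232, 1026 and 1367 CPM in IM1 and had 0 counts in AM, at least 16948-fold higher. The haemoglobin scavenger receptor Cd163 stood at 898, 965 and 1007 CPM in IM1 and 0.49, 0.632 and 0.516 in AM (log2 fold change 10.75). The receptors higher in AM included Marco, which binds particles and bacteria, at 391, 446 and 411 CPM against 4.63, 1.99 and 2.27 in IM1 (log2 fold change -7.17), and Olr1, a receptor for oxidised LDL, at 369, 452 and 455 against 3.23, 4.44 and 4.54 (log2 fold change -6.69). The lectins Clec4a2 (0.28), Clec4a3 (0.26) and Clec4d (-0.40) were not called. Clec4a2 and Clec4a3 were called higher in IM1 without IM1 replicate B, and Clec4d was called higher in AM without IM1 replicate A.

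Complement was 1 of the groups with the largest differences. All 20 tested genes of the list were called, 17 higher in IM1 and 3 higher in AM, with a median log2 fold change of 6.29. The 3 genes of C1q, the recognition molecule of the classical pathway, lie side by side on chromosome 4 (C1qa at chr4:136895917-136898803, C1qc at chr4:136889804-136893065, C1qb at chr4:136880129-136886187, mm10). C1qa stood at 2826, 2478 and 2497 CPM in IM1, C1qb at 8628, 4669 and 5487 and C1qc at 8081, 4281 and 5381. In AM the 3 genes had 1, 2 and 1 counts over all libraries, so that the ratio for C1qa was 108618 (95% interval 19494 to 4290230). Per kilobase of transcript, the IM1 levels were 2500.2 CPM for C1qa, 5755 for C1qb and 3063 for C1qc. C3ar1, the receptor for C3a, was also higher in IM1 (log2 fold change 9.69). The members higher in AM were Itgax, a complement receptor chain, C3, the central component (234, 329 and 297 CPM against 85.2, 215 and 136 in IM1, log2 fold change -0.98), and the protease C1ra (-0.93).

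Of 23 chemokine genes, 16 were higher in IM1 and 4 higher in AM. Ccl8, a monocyte-attracting chemokine, was at 324, 144 and 141 CPM in IM1 and had 0 counts in AM, at least 2696-fold higher. Cxcl13, which attracts B cells, was at 175, 98.7 and 119.8 CPM in IM1, also with 0 counts in AM. Both were highest in IM1 replicate A. Ccl22 (-3.78) and Cxcl3 (-3.41) were higher in AM, at under 11 CPM in every library. Cxcl14 (0.03), Ccl5 (0.43) and Cxcl9 (-0.44) were not called.

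Of 21 tested cytokine genes, 10 were higher in IM1 and 6 higher in AM. Il10, an anti-inflammatory cytokine, was at 24.4, 22.2 and 13.9 CPM in IM1 and had 0 counts in AM, at least 277-fold higher. Tnfsf9, the ligand of the costimulator 4-1BB, stood at 30.3, 22.6 and 22.8 against 0.21, 0.0702 and 0.368 (log2 fold change 6.82). The cytokines higher in AM were led by members of the interleukin-1 family: the receptor antagonist Il1rn at 239, 250.03 and 261 CPM against 10.05, 13.9 and 10.4 in IM1 (log2 fold change -4.44, SE 0.18, adjusted p = 1.17e-11), and Il18 at 254, 269 and 250.5 against 25.2, 19.6 and 19.8 (log2 fold change -3.58). Tnf (0.42) was not called.

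Of 33 tested genes for growth factors and matrix remodelling, 20 were higher in IM1 and 10 higher in AM. Mmp9 (chr2:164940780-164955850, mm10), a gelatinase, was at 1365, 1002 and 1325 CPM in IM1 and had 0 counts in AM, at least 17113-fold higher. F13a1, the clotting factor that cross-links fibrin, was at 2184, 2472 and 3224 CPM in IM1 and 0.14, 0.281 and 0.0736 in AM (log2 fold change 13.87). Spp1, which encodes osteopontin, was at 951, 1148 and 1076 CPM in AM and 37.9, 66.3 and 50.6 in IM1 (log2 fold change -4.36, SE 0.21, adjusted p = 6.03e-11). The growth factor Ereg had 87 counts in AM and 1 in IM1. Pdgfc (-0.05), Hgf (0.53) and Sdc3 (-0.59) were not called. Hgf was called higher in IM1 without IM1 replicate A, and Sdc3 was called higher in AM without IM1 replicate B. Of 14 fibroblast markers, 13 were higher in IM1 beside these genes, and their part in the result was not tested.

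In the chitinase-like, RELM, arginine and ribonuclease group, 4 of 14 tested genes were higher in IM1 and 10 higher in AM. Retnla, which encodes the secreted protein RELM-alpha, was at 745, 292 and 328 CPM in IM1 and had 0 counts in AM, at least 6022-fold higher. IM1 replicate A held the highest of its values by more than 2-fold. Ear1, a secreted ribonuclease, was at 403, 363 and 335 CPM in AM and 0.699, 0.531 and 0.843 in IM1 (log2 fold change -9.03), and Chil4 at 60.04, 44.2 and 57.96 against 0.262, 0.199 and 0.0649 (log2 fold change -8.26). The Ear genes share sequence, and reads that fit several of them were not counted.

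Of 20 genes for MHC class II presentation and costimulation, 7 were higher in IM1, 9 higher in AM and 4 not called. Cd40, the costimulatory receptor, was at 110.4, 107 and 128 CPM in IM1 and 0.56, 0.632 and 1.105 in AM (log2 fold change 7.23, SE 0.24, adjusted p = 1.25e-12). The subunits of H2-O, which restrains class II peptide loading, moved apart. H2-Ob was higher in IM1 (6.903, 9.15 and 7.53 CPM against 0.28, 0 and 0.0736) and H2-Oa was higher in AM (3.15, 3.93 and 5.74 against 0.0874, 0.265 and 0.324). Pdcd1lg2, an inhibitory ligand also called PD-L2, was higher in AM (log2 fold change -4.29).

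Metabolic genes were mostly higher in AM. Of 36 tested genes that take up, store or export lipid, 23 were higher in AM and 10 higher in IM1. Lipf and Pnpla5, lipases, were at 55.5, 63.4 and 63.1 and 22.7, 19.8 and 24.2 CPM in AM and had 0 counts in IM1, at least 848-fold and 310.4-fold higher in AM. The carrier Fabp4 stood at 154, 213 and 181 CPM in AM and 2.796, 1.19 and 0.519 in IM1 (log2 fold change -7.00). The exporter Abcg1 differed by -3.91 on the log2 scale, at 864 CPM in AM and 57.6 in IM1. The lipoprotein gene Apoe showed the largest gain in CPM of all genes, at 21443, 10084 and 11800.4 CPM in IM1 and 11.1, 6.04 and 5.08 in AM (log2 fold change 10.93, SE 0.44, adjusted p = 1.01e-11). Apoe was about 2 times as high in IM1 replicate A as in replicates B and C, and the groups did not overlap. Vldlr, a receptor for lipoproteins, had 0 counts in AM and was at least 276-fold higher in IM1.

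Of 30 genes of fatty acid oxidation and peroxisomes, 26 were higher in AM, 0 higher in IM1 and 4 not called, with a median log2 fold change of -1.15. Acaa1b, a peroxisomal thiolase, was at 176, 119 and 117 CPM in AM and 1.14, 1.19 and 0.714 in IM1 (log2 fold change -7.09), and the thioesterase Acot1 at 51.7, 48.6 and 41.8 against 3.06, 3.58 and 2.27 (log2 fold change -3.99). Of 24 tested genes of cholesterol synthesis, 22 were higher in AM and 0 higher in IM1, with a median of -1.77. Hmgcs1, which makes HMG-CoA, was at 266, 338 and 265 CPM in AM and 31.2, 43.8 and 42.9 in IM1 (log2 fold change -2.88, SE 0.21, adjusted p = 1e-08), and Mvd, the mevalonate decarboxylase, at 124, 139.9 and 137 against 20.1, 14.9 and 20.95 (log2 fold change -2.84). Srebf2, the regulator of this pathway (-0.30), and Ebp (-0.20) were the members not called, and both were called higher in AM without IM1 replicate A. Among 23 genes of glycolysis and the pentose phosphate pathway, 16 were higher in AM and 4 higher in IM1. Aldoc, an aldolase, was at 242, 235 and 256 CPM in AM and 10.8, 4.51 and 6.36 in IM1 (log2 fold change -5.10). Slc2a3, a glucose transporter, was higher in IM1 (9.18, 9.22 and 7.72 CPM against 0.911, 0.211 and 0.663). Counts of glycolytic genes with many pseudogenes are incomplete, since reads mapping to several places were not counted.

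Of 34 tested lysosomal genes, 17 were higher in AM, against 25.7% of all genes, and 11 were higher in IM1, near the 33.1% of all genes. Ctsd, a cathepsin abundant in both populations, was at 22729.6, 25079 and 23298 CPM in AM and 3317, 2756 and 3259 in IM1 (log2 fold change -2.93, SE 0.12, adjusted p = 1.48e-11). Atp6v0d2, a proton pump subunit, was at 2012, 2043 and 1879 CPM in AM and 36.4, 51.1 and 41.001 in IM1 (log2 fold change -5.53), and the collagen-cleaving cathepsin Ctsk at 787, 1052 and 821 against 17.1, 21.2 and 23.2 (log2 fold change -5.43). Lgmn, an asparaginyl protease, was higher in IM1, at 837, 1132 and 923 CPM against 178, 188 and 159 (log2 fold change 2.46).

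Of 22 tested iron and haem genes, 13 were higher in IM1 and 8 higher in AM. Cp, the ferroxidase ceruloplasmin, was at 219.7, 318 and 313 CPM in IM1 and had 3 counts in AM. Hmox1, which breaks down haem, was at 619, 937 and 768 CPM in AM and 258, 182 and 214 in IM1 (log2 fold change -1.83), and Ncoa4, the receptor for ferritin breakdown, was higher in AM as well (-1.93). Haemoglobin transcripts moved with these genes: Hbb-bs was at 249, 267 and 212 CPM in AM and 4.81, 6.63 and 14.5 in IM1, and the summed level of 10 erythroid and platelet markers was 346 to 427 CPM in AM and 14.8 to 29.2 in IM1. Their part in the result was not tested.

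Of 31 interferon response genes, 22 were higher in IM1 and 4 higher in AM, with a median of 1.28. Ifitm6 and Ifitm1, antiviral membrane proteins, had 0 counts in AM and stood at 11.6, 3.38 and 6.16 and 4.98, 3.78 and 2.4004 CPM in IM1. They belong to a family of near-identical genes, so their counts are uncertain. Gbp2, a guanylate-binding protein, was higher in AM (log2 fold change -0.93). Of 26 pattern recognition genes, 8 were higher in IM1 and 8 higher in AM, shares near the 33.1% and 25.7% of all genes. Tlr1, a receptor for bacterial lipopeptides, was at 58.5, 71.6 and 78.6 CPM in IM1 and 0.21, 0.772 and 0.81 in AM (log2 fold change 6.85), and Clec7a, which encodes the beta-glucan receptor dectin-1, at 917, 1135 and 1014 CPM in AM and 95.7, 134 and 185 in IM1 (log2 fold change -2.88).

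Of 30 tested integrin and adhesion genes, 15 were higher in IM1 and 11 higher in AM. Itga9 was at 63.7, 136 and 106 CPM in IM1 and had 0 counts in AM, at least 1479-fold higher. Vcam1, which binds the integrin VLA-4, was at 671, 439 and 363 against 0.35, 1.05 and 1.105 (log2 fold change 9.19). Itgad, another integrin chain, was at 41.8, 32.6 and 38.9 CPM in AM and 0.524, 0.0663 and 0.714 in IM1. Of 18 tested keratin and junction genes of the epithelial type, 14 were higher in AM and 3 higher in IM1, among them the cell adhesion molecule Cadm1 (45.96, 50.7 and 51.2 CPM against 0.56, 0.211 and 0.147).

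Cell cycle genes were higher in AM almost as a block. Of 44 genes, 42 were higher in AM, with a median log2 fold change of -2.26. Rrm2, a ribonucleotide reductase subunit needed for DNA synthesis, was at 188, 229 and 177 CPM in AM and 6.47, 9.09 and 10.8 in IM1 (log2 fold change -4.49, SE 0.19, adjusted p = 1.73e-11). E2f2, a regulator of S phase entry, stood at 48.6, 50.5 and 42.3 against 0.699, 1.13 and 1.88 (log2 fold change -5.20), and the proliferation marker Mki67 at 64.7, 81.7 and 64.5 against 10.05, 18.8 and 15.8 (log2 fold change -2.23). None of these genes overlapped between the populations, where 28.1% of all genes had every AM library above every IM1 library. The exception was Ccnd1, cyclin D1, which was higher in IM1 (50.5, 30.9 and 34.97 CPM against 0.631, 0.561 and 0.221, log2 fold change 6.32). The centromere histone Cenpa (0.15) was not called.

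Immediate early and dissociation stress genes were mostly higher in IM1. Of 34 genes, 27 were higher in IM1, 1 (Egr2, -1.03) was higher in AM and 6 were not called, with a median of 3.08, or 2.87 with genes at 0 in AM set to their bound. Without IM1 replicate A, 2 were higher in AM. Egr1, a growth-induced factor, stood at 1045, 1006 and 931 CPM in IM1 and 1.68, 4.91 and 4.12 in AM (log2 fold change 8.12, SE 0.35, adjusted p = 1.73e-11). Fos, a subunit of AP-1, stood at 3429, 2560.03 and 2631 against 107, 78.1 and 75.8 (log2 fold change 5.05), and Nfkbiz, an NF-kappa-B cofactor, at 208, 267 and 159 against 2.31, 3.23 and 4.71 (log2 fold change 5.95). All 3 IM1 libraries held high levels of these genes. The heat shock genes Hspa1a (0.21), Hspa1b (-0.21), Hspa8 (0.04) and Hsp90aa1 (-0.37) were among those not called. Cell preparation, which differed as described for the sorts, cannot be told apart from the population here.

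**Figure D3:**
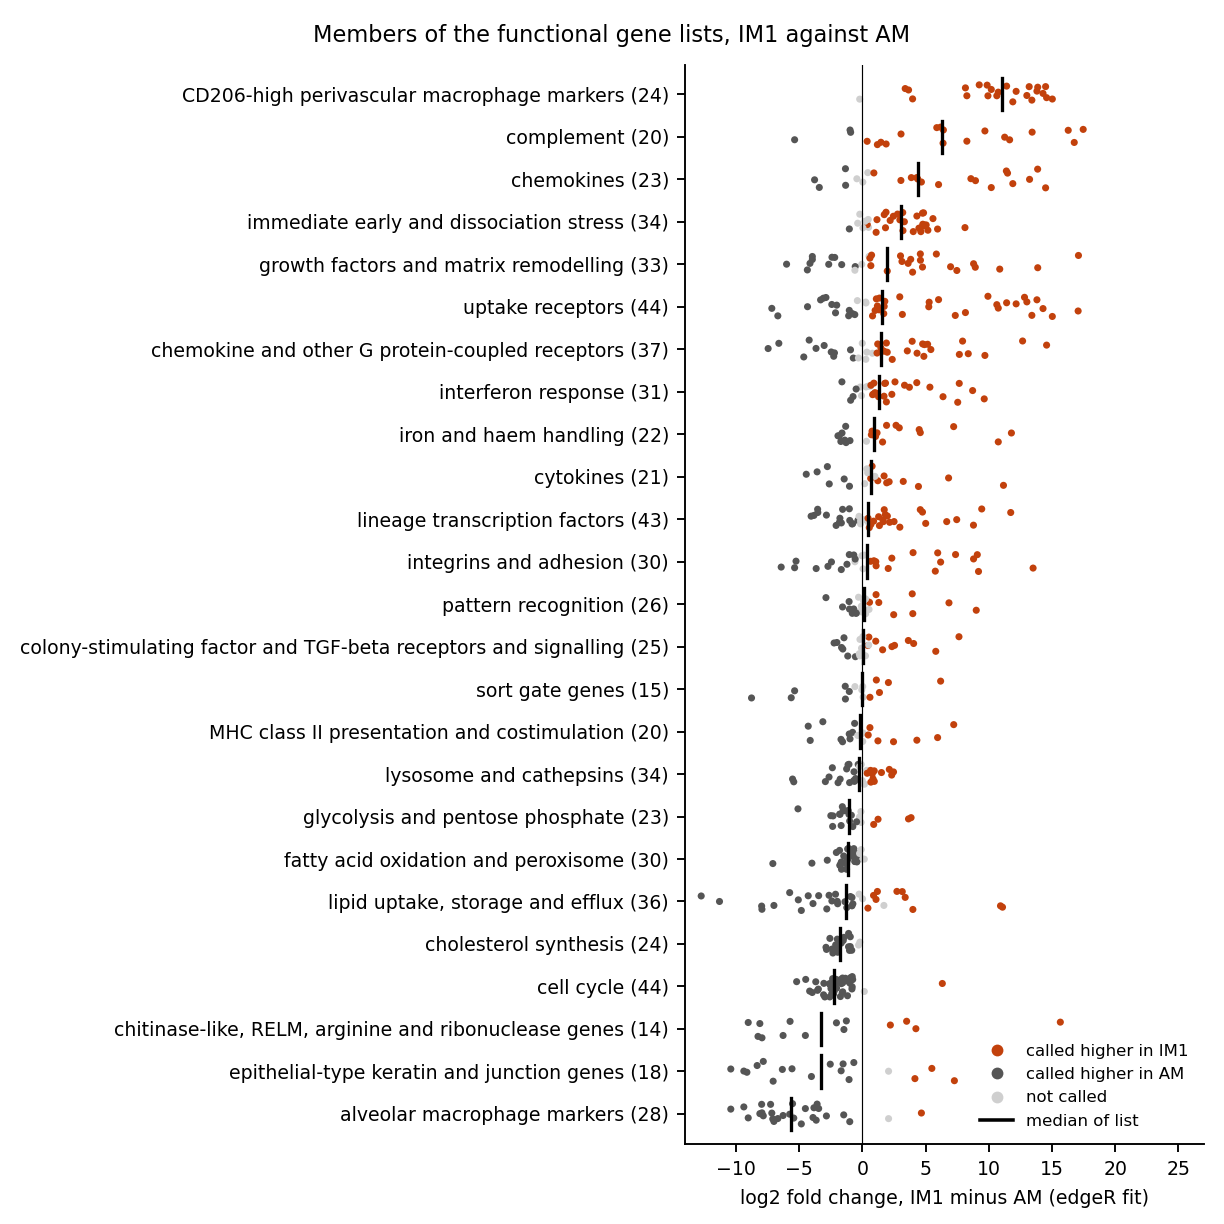
Log2 fold change of IM1 over AM (horizontal, edgeR fit) for the tested members of 25 gene lists (the number tested is given after each name), each point a gene, coloured by its call, with the median of the list as a black bar. CD206-high perivascular markers (median 11.08) and complement (6.29) lie at the top, and cell cycle (-2.26) and alveolar macrophage markers (-5.64) near the bottom.

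Promoters are printed for members of the cholesterol synthesis and cell cycle lists, in which 22 of 24 and 42 of 44 genes were higher in AM, and for a pair of MHC class II genes that differed in behaviour, H2-Aa at a like level in IM1 and AM and H2-DMb1 lower in IM1. Each is the 150 bases before the RefSeq start of the gene on its own strand, on GRCm38.p6. The Ensembl models used for counting can start elsewhere. That of H2-DMb1 begins within the printed stretch. Capitals mark matches to CCAAT, the NF-Y box (read as ATTGG on the other strand), in H2-Aa also to TGACGTCA, the cyclic AMP response element, and in Hmgcs1 also to TCACNCCAC, the sterol regulatory element.
H2-Aa, chr17:34287824-34287973, minus strand: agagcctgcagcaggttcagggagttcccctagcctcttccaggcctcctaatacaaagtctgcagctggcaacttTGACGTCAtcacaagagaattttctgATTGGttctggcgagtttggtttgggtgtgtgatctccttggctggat
H2-DMb1, chr17:34153041-34153190, plus strand: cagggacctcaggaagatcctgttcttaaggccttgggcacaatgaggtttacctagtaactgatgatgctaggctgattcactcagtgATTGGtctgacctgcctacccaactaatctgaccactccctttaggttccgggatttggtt
Hmgcs1, chr13:119690201-119690350, plus strand: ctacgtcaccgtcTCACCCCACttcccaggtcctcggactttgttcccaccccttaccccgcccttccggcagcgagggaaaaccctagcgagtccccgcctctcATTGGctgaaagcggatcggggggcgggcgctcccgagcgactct
Rrm2, chr12:24708104-24708253, plus strand: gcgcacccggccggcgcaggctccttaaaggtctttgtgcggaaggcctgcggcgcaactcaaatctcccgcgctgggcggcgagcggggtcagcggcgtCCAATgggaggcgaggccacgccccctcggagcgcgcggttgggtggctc
Ccnb1, chr13:100786487-100786636, minus strand: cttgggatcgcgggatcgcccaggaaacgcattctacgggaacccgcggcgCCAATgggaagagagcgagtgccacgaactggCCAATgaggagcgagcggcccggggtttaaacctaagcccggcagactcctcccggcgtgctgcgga
The box begins 48 bases before the RefSeq start in H2-Aa, 61 in H2-DMb1, 45 in Hmgcs1 and 50 in Rrm2. In Ccnb1, which encodes the mitotic cyclin B1, boxes begin 99 and 67 bases before it. The search covered both strands of the 300-base RefSeq windows around gene starts (250 before, 50 after). CCAAT was found in 37.4% of 32851 windows of all genes, 16 of 20 windows of the cholesterol genes (80%), 30 of 39 of the cell cycle genes (76.9%) and 7 of 8 of the MHC class II genes (87.5%). TTTGAA, the CHR element of late cell cycle genes, was in 17.9% of all windows and 35.9% of the cell cycle windows. TCACNCCAC was in 1.24% of all windows and in 1 of the 20 cholesterol windows, that of Hmgcs1. The CArG box of the serum response factor was in 1.63% of all windows and in 5 of 33 windows (15.2%) of the immediate early genes, and TGACGTCA in 1.79% of all and 9.09% of those. These matches are descriptions of sequence, and motifs can overlap each other. RefSeq windows were matched for 17 of 25 cholesterol genes, 35 of 44 cell cycle genes, 28 of 34 immediate early genes and 7 of 10 class II genes.

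Few differences from AM were found in IM1 alone. A gene was counted so when it was called against AM in IM1, was not called in that direction in IM2 or IM3, and was also called between IM1 and each of them. This held for 36 genes (0.255% of those tested), 8 higher than AM and 28 lower. A looser count took genes called against AM in IM1 and not called in that direction in IM2 or IM3. It gave 884 (6.27%) without a test of the difference, and 507 without IM1 replicate A. IM1 differed from IM2 in few genes, 69 called higher in IM1 (0.49%) and 172 higher in IM2 (1.22%), and from IM3 in more, 1790 (12.7%) and 1655 (11.7%). Libraries of IM1 and IM2 that share a letter deviated together, and with the replicate letter as a block 117 genes were called higher in IM1 and 275 higher in IM2. With this block the genes in IM1 alone numbered 62, of which 50 were lower than AM, and 35 of the 36 were among them. The count of 36 depended on single libraries: it was 453 without IM1 replicate B, 19 without IM1 replicate C, 14 without IM2 replicate B, 22 without IM2 replicate C and 22 without AM replicate A. The 28 lower genes became 16 to 18 when any IM3 library was left out, and the 8 higher genes 2 to 5 without AM replicate A or B, IM1 replicate C or any IM2 library. Of the 36 genes, 12 stayed in the set in all 17 alternatives tried: Ciita, H2-DMa, H2-DMb1, H2-DMb2, Klrb1b, Prss30, Olfm1, Tspan32, Krt80, Ipcef1, Ccl17 and Cspg4.

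Genes of MHC class II presentation were among those in IM1 alone, 4 of the 20 tested in that list against 0.255% of all genes. IM1 was gated as MHC class II low and IM2 and IM3 as high, and membership in the set needs a difference from both, so the gate favours such genes and the count is a description. Ciita (chr16:10488178-10527564, mm10), the coactivator that switches on class II genes, was at 11.7, 16.4 and 19.2 CPM in IM1, 20.1, 32.5 and 28.9 in AM, 146, 197 and 204 in IM2 and 277, 318 and 331 in IM3. IM1 differed from AM by -0.78 on the log2 scale (SE 0.20, adjusted p = 0.00383), with no overlap of libraries, while IM2 and IM3 were above it. H2-DMa and H2-DMb1 (chr17:34153072-34160230) encode the H2-DM chains that exchange peptides on class II molecules. H2-DMa was at 222, 162 and 182 CPM in IM1 against 389.9, 368 and 359 in AM (log2 fold change -0.98, SE 0.13, adjusted p = 1.19e-05), and H2-DMb1 at 152, 110.3 and 147 against 230.2, 319 and 293 (log2 fold change -1.04, SE 0.15, adjusted p = 2.11e-05). In IM2 they stood at 605, 565 and 624 and 609.8, 667 and 734 CPM, and in IM3 at 909, 1040.1 and 831 and 1234, 1302 and 1239. H2-DMb2, a second beta chain, was at 3.495, 6.43 and 4.87 in IM1 and 17.1, 11.1 and 16.2 in AM (log2 fold change -1.57). The H2-DMb genes are close copies, and reads common to them were not counted. Ciita and the H2-DM genes were lower in IM1 than in AM, whereas H2-Aa, H2-Ab1 and Cd74 were not called and H2-Eb1 was higher.

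Klrb1b (chr6:128813706-128826331), an inhibitory receptor of the NK lectin family, was at 1.75, 1.86 and 2.01 CPM in IM1, 9.53, 11.8 and 12.96 in AM, 13.1, 27.2 and 18.8 in IM2 and 131, 161 and 146 in IM3 (IM1 over AM log2 fold change -2.60, SE 0.26, adjusted p = 4.21e-07). Prss30, a serine protease, was at 4.28, 1.86 and 3.44 in IM1, 15.7, 20.1 and 13.7 in AM, 10.5, 15.6 and 14.001 in IM2 and 67.6, 71.7 and 77.7 in IM3 (log2 fold change over AM -2.39). Olfm1, a secreted olfactomedin, was at 22.5, 36.5 and 33.1 in IM1 and 116, 91.1 and 101 in AM (log2 fold change -1.74). The rule of the set makes IM1 the lowest of the 4 populations for these 3 genes, and its libraries did not overlap with those of the others. Tspan32, a tetraspanin (-1.24), and the keratin Krt80 (-1.06) were also lower in IM1 alone. Col15a1, a collagen (-1.73), Rasgrf2, a Ras activator (-1.69), Ipcef1 (-1.58) and the inflammasome sensor Nlrp1b (-0.94) complete the 12 lower genes with the largest differences among those of at least 5 CPM in IM1 or AM. Of these 4, Col15a1 and Nlrp1b stayed in the set in only 6 of the 17 alternatives.

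Of the 8 genes higher than AM in IM1 alone, Trib3, a pseudokinase induced by amino acid and endoplasmic reticulum stress, differed most. It stood at 16.6, 14.5 and 12.8 CPM in IM1, 4.55, 3.16 and 2.504 in AM, 3.84, 4.699 and 6.75 in IM2 and 5.097, 4.69 and 5.35 in IM3 (IM1 over AM log2 fold change 2.10, SE 0.26, adjusted p = 4.69e-06). Asns, asparagine synthetase, stood at 11.4, 12.1 and 8.89 CPM in IM1 and 6.03, 3.93 and 4.93 in AM (log2 fold change 1.12), and left the set in 10 of the 17 alternatives. Cspg4, the proteoglycan NG2 known from pericytes, stood at 9.44, 31.8 and 16.5 in IM1, 6.66, 7.09 and 5.74 in AM, 3.46, 3.998 and 1.14 in IM2 and 2.05, 3.81 and 2.57 in IM3. Its IM1 libraries spread more than 3-fold, with replicate B the highest, and lay above every other library. The fibroblast marker Col3a1 was also highest in IM1 replicate B and lowest in A, while the fibroblast marker Inmt was highest in A. The part of pericytes or fibroblasts in the level of Cspg4 was not tested. Ddah1, which degrades methylarginines (1.03), and the aldo-keto reductase Akr1b8 (0.93) were at under 30 CPM. Sh3bp5 (0.57), Slc9a3r2 (0.54) and Serpinb6a (0.50) differed by less than 1.5-fold. Slc9a3r2 and Serpinb6a lost their calls against AM without IM1 replicate A, without AM replicate A, or without AM replicate B (Slc9a3r2) or C (Serpinb6a).

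**Figure D4:**
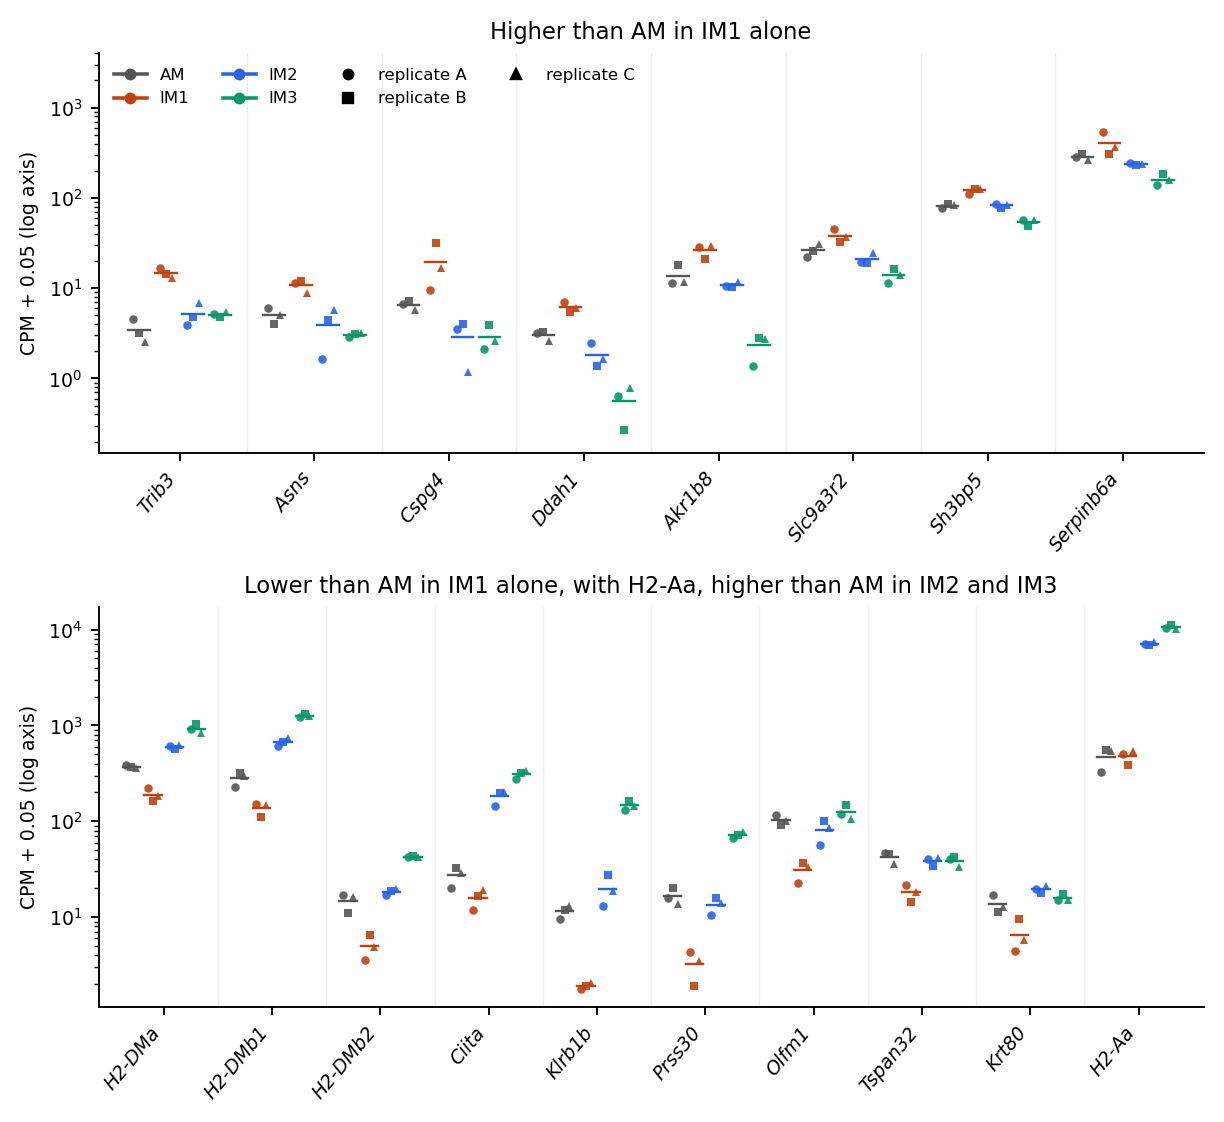
Level of single genes in all 12 libraries of the 4 populations (CPM + 0.05, log axis), each symbol a library and each bar a mean. Above, the 8 genes higher than AM in IM1 alone, such as Trib3 (12.8 to 16.6 CPM in IM1). Below, 9 of the 28 genes lower than AM in IM1 alone, with H2-Aa at the right, which IM1 holds at the AM level and IM2 and IM3 hold far above it.

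The reverse set held genes that IM2 and IM3 changed from AM in the same direction and IM1 did not change in that direction. Cspg4, Ciita, H2-DMa, H2-DMb1 and Klrb1b of this set were called against AM in IM1 in the opposite direction. They are also counted among the genes in IM1 alone. The reverse set numbered 28 genes (0.199%), 24 of them higher than AM in IM2 and IM3. The count was 375 without IM1 replicate B, 17 without IM2 replicate B and 18 without IM2 replicate C. The 4 genes lower than AM became 1 or 2 without IM2 replicate B or C or IM3 replicate C, and 8 with the replicate block. The set was led by class II: H2-Aa was at 7031, 6922 and 7373 CPM in IM2 and 10464, 11066 and 10046 in IM3, so that IM1 differed from IM2 by -3.89 (adjusted p = 1.16e-08) and from IM3 by -4.46 (adjusted p = 1.03e-09) on the log2 scale. The surface MHC class II gate separated IM1 from IM2 and IM3, so these class II genes differ between populations that were sorted on their product. Dcstamp, a fusion receptor of osteoclasts and dendritic cells, was at 0.437, 0.398 and 0.26 CPM in IM1, 0.21, 0.351 and 0.516 in AM, 2.11, 2.17 and 4.48 in IM2 and 5.03, 7.77 and 7.78 in IM3. In the other direction, the copine Cpne8 was at 78.1, 68.3 and 75.97 CPM in IM1 and 73.4, 67.9 and 65.3 in AM, and at 35.8, 31.5 and 40.6 in IM2 and 9.399, 11.7 and 16.3 in IM3. The protease Ctsl followed the same order, with IM1 not called against AM (0.08) and above IM2 by 0.75 (adjusted p = 0.0397) and IM3 by 1.67 (adjusted p = 4.89e-06). Clec4d and Cspg4 completed the 4 genes that were lower than AM in IM2 and IM3 only.

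At the other end, 2126 genes (15.1%) had a 95% interval of the difference between IM1 and AM wholly within 1.5-fold. The most abundant was Tmsb4x, an actin-binding peptide, at 11387, 5604 and 5979 CPM in IM1 and 7633, 7989.5 and 7395 in AM (interval -0.47 to 0.46), which was called higher in AM without IM1 replicate A. It was followed by the MHC class I gene H2-D1 (-0.17 to 0.37), Anxa5, Ctsa (-0.36 to 0.18), the lysosomal membrane gene Lamp1 (-0.27 to 0.26), Cd74, mt-Co1 (-0.40 to 0.38), Hsp90ab1 (-0.35 to 0.27), Arhgdib (-0.37 to 0.43) and Man2b1. Of these, Anxa5 (-0.30) and Man2b1 (0.34) were called although their differences were small. The call of Anxa5 was lost without AM replicate A or B or IM1 replicate B or C, and that of Man2b1 without AM replicate C or IM1 replicate C.

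Markers of other cells were measured because a sorted population can hold a few of them. Of 14 fibroblast markers 13 were called higher in IM1 and Acta2 was not called, and 9 of the 14 had 0 counts in AM. Their summed level was 933 to 1023 CPM in IM1 and 459 to 575 in AM, most of it Gsn, a gene also active in macrophages, whose call was lost without AM replicate A. After Gsn, the highest were Inmt at 183, 104 and 132 CPM in IM1 and Col3a1 at 11.01, 50.8 and 21.3, both with 0 counts in AM. Of 14 endothelial markers 12 were higher in IM1, where Lyve1 made up most of their sum of 653 to 1135 CPM, and the defining genes Cdh5 (4.46, 6.83 and 3.89 CPM) and Cldn5 (11.4, 11.7 and 12.8 CPM) were low, with 0 counts in AM. Of 10 tested lung epithelial markers 8 were higher in IM1, at a summed level below that of AM (80.9 to 131 CPM against 177 to 183), and Sftpc stood at 14.4, 8.82 and 11.6 CPM in IM1. Growth factor, adhesion and complement genes that stromal cells also express, such as Cxcl12 (24.03, 21.4 and 25.3 CPM in IM1, 0 counts in AM) and Serping1 (20.97, 18.97 and 24.5 CPM, 0 counts in AM), moved with these markers, and their part in the result was not tested.

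Among leukocyte markers, the T cell genes Cd3d, Cd3e and Cd3g were at under 0.2 CPM on average in both populations, and Cd8a had 0 counts. Cd4 stood at 139, 219 and 247 CPM in IM1. Trac, the constant region of the T cell receptor alpha chain, stood at 4201, 0.862 and 0 CPM in IM1. The B cell gene Pax5 had 0 counts in both, while Ighm, the heavy chain of IgM, stood at 904, 764 and 1004 CPM in IM1 and 0.21, 0.632 and 0.589 in AM, and Cd79b at 68.3, 39.9 and 48.98 CPM with 0 counts in AM. Ly6g, Elane and Mpo of the neutrophil list had 0 counts in both. Other members were present: Mmp8 averaged 76.8 CPM in AM and 4.94 in IM1, and Csf3r 73.5 and 72.8. The summed level of the list was 146 to 176 CPM in AM and 74.2 to 84.8 in IM1. Of the eosinophil, basophil and mast cell list, 10 of 12 genes did not pass the count filter. Of 10 tested dendritic cell markers 7 were higher in IM1, Siglech among them (392, 259 and 409 CPM, 0 counts in AM), while Flt3 averaged 2.77 CPM and Xcr1 0.233 CPM in IM1. Of 11 tested monocyte markers 2 were higher in IM1, 6 higher in AM and 3 not called. Ly6c2 (0.3 CPM) and Plac8 (1.39 CPM) were low in IM1 and Ccr2 averaged 70.98 CPM. Fn1 stood at 152, 599 and 218 CPM in IM1 and averaged 1005.5 in AM, and F10 averaged 2.64 and 180.6. Most of the monocyte list's sum in AM was Chil3, which alveolar macrophages express themselves.

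**Figure D5:**
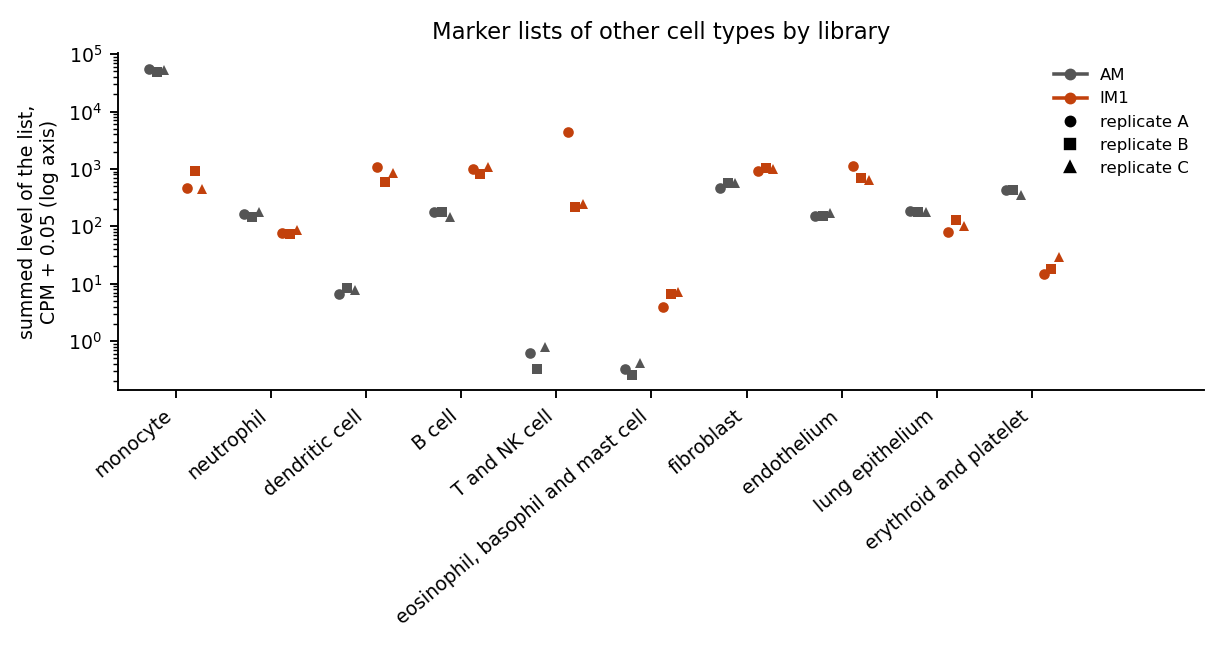
Summed level of 10 marker lists of other cell types in each AM and IM1 library (CPM + 0.05, log axis), each symbol a library. The T and NK cell sum is far higher in IM1 replicate A (4342 CPM) than in replicates B and C (221 and 248). In replicate A it is almost wholly Trac (4201 CPM), and the monocyte sum in AM is almost wholly Chil3.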

How the data were processed

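RNA of sorted lung macrophages was sequenced, and the authors deposited raw counts per gene for 12 libraries, summed over runs. Per the file headers, reads were counted with featureCounts 1.5.0-p1 on Ensembl 78 gene models, without strand. The submitters' processing notes name mm10 and STAR 2.5.1b. Per the deposited summary, reads that mapped to several places or fitted several genes were not counted, so near-identical, overlapping and antisense genes are uncertain. Here, edgeR 4.0.16 (TMM scaling, genes kept by filterByExpr with a minimum count of 10, robust quasi-likelihood test, Benjamini-Hochberg adjustment over 14095 genes) was fitted to all 12 libraries with population as the only term. The code was tested on simulated data with 200 of 14095 genes changed, where 57% of 2-fold and 84% of 4-fold changes were called in the right direction. There, 4 unchanged genes were called. In the data 58.8% of genes were called, so these shares check the code and do not give its sensitivity here. Each log2 fold change is IM1 over AM and its SE was taken from the F statistic. For genes at 0 in a population, folds are bounds from 3 counts over the group. Ratios with 1 to 3 counts carry 95% intervals for counting error only. Symbols came from GENCODE M21 for 42462 of 43346 genes. Alternatives were upper-quartile scaling, DESeq2 1.42.0, no filter, the replicate letter as a block, limma 3.58.1 voom with quality weights, the 6 libraries alone, and leaving out each library. Deviations of same-letter libraries from their population means correlated between IM1 and IM2 (0.26, 0.17 and 0.29) and between IM2 and IM3 (0.19, 0.14 and 0.16), so the letters pair these by the data, but not throughout between IM1 and IM3 (0.07, -0.12 and 0.17) or between IM1 and AM (0.05, -0.05 and -0.03).

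The genes named were the gate genes, the largest fold changes (10 in each direction, at least 50 CPM) and CPM differences (6 in each direction), the 2 most raised and 2 most lowered called members of each list with the uncalled where 3 or fewer, up to 12 in each direction of those in IM1 alone and 6 of those IM1 lacks, the 10 most abundant of like level, and the 3 highest markers of each other cell type. Other list members, such as Fos, Mki67, Folr2 and Stab1, were picked after their values were seen. Some members of the lists are not reported here. The populations, gene lists and rules were chosen with earlier results of these data known.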

Additional observations from a re-analysis of the deposited data

Results flagged for a closer look

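In 5 of the 36 genes found in IM1 alone, IM1 and both other interstitial populations were called on opposite sides of AM, and the differences between populations were tested in the same edgeR fit. Cspg4 was higher than AM in IM1 (log2 fold change 1.57) and lower in IM2 and IM3, and IM1 differed from IM2 by 2.76 (adjusted p = 0.00362) and from IM3 by 2.78 (adjusted p = 0.000243) on the log2 scale. The other 4 were lower than AM in IM1 and higher in IM2 and IM3. H2-DMb1 differed from AM by -1.04 in IM1, which differed from IM2 by -2.30 (adjusted p = 4.33e-07) and from IM3 by -3.21 (adjusted p = 3.77e-09). For H2-DMa the difference from AM was -0.98, that from IM2 -1.66 (adjusted p = 4.12e-06) and that from IM3 -2.30 (adjusted p = 1.5e-08). For Ciita they were -0.78, -3.52 (adjusted p = 1.18e-07) and -4.28 (adjusted p = 3.8e-09). For Klrb1b they were -2.60, -3.39 (adjusted p = 2.07e-06) and -6.27 (adjusted p = 6.28e-10). Ciita and the H2-DM genes belong to the MHC class II pathway on which these populations were gated.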

How the results depend on the processing

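No reported result changed direction under the alternatives run. The genes called kept 83.8% (6 libraries alone) to 99.7% (DESeq2) of their calls in the same direction, and 0 were called the opposite way. The looser count, of genes called in a given direction from AM in IM1 only, was 884. It lay between 507 (without IM1 replicate A) and 1242 (without IM1 replicate B) with 1 library left out. The counts that involve IM2 and IM3 moved more than those of IM1 against AM. Genes in IM1 alone, 36, became 84 with DESeq2, 153 without a filter, 62 with the replicate block and 180 with voom, and 14 to 453 when 1 library was left out. The 8 higher became 22, 34 and 29 with DESeq2, no filter and voom, and 2 to 144 with a library left out. The 28 lower became 62, 119, 50 and 151 with DESeq2, no filter, the replicate block and voom, and 12 to 309 with a library left out. The 28 genes found in IM2 and IM3 but not IM1 became 74, 131 and 156 with DESeq2, no filter and voom, and 17 to 375 with a library left out. Of these, the 24 higher became 51, 84 and 131, and 15 to 230, and the 4 lower became 23, 47, 8 with the replicate block, 25 with voom, and 1 to 145. The cause was not tested. The replicate block kept 8236 (99.3%) of the calls against AM. With it, the genes called between IM1 and IM2 became 117 and 275 (from 69 and 172). Depth limits genes under about 0.25 CPM, the level of 3 counts in the shallowest library.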

Other observations

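Of 12373 protein-coding genes tested, 4121 were higher in IM1 and 3416 in AM. Of 249 lincRNA genes 119 were higher in IM1 and 33 in AM, and of 267 antisense genes 116 and 26, where 33.1% and 25.7% of all genes were. Of 518 processed pseudogenes 45 were higher in IM1 and 91 in AM, both shares being below those of all genes. Counting did not use strand, so antisense reads cannot be told apart from those of their partner genes.

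T cell receptor alpha transcripts appeared in 1 IM1 library. Trac, the constant region, stood at 4201 CPM in IM1 replicate A, 0.862 in B and 0 in C, and at 1078 CPM in IM2 replicate B and 649.9 in IM3 replicate B. The variable genes Trav14n-1 and Trav14d-1 showed the same libraries, at 4117 and 1018 CPM in IM1 replicate A, 902.6 and 252.2 in IM2 replicate B, and 518 and 167.6 in IM3 replicate B. The Trav14 genes are near-identical copies, so how their reads divide is uncertain.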
